A study of Mus musculus with 18 samples.

Results

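Transcript signal in whole mouse testis at postnatal day 14 (P14) was compared with that in whole testis at embryonic day 15.5 (E15.5). The arrays were chosen by their titles alone, 3 at P14 and 3 at E15.5, which is 6 of the 18 arrays in the series. All 37820 probes of the deposited table entered the comparison. The other 12 arrays, 3 each at E12.5, P7, P21 and in the adult, entered the fit to estimate the spread and show the level of the same probes at other ages. No strain, genotype or treatment is given for any stage, so P14 and E15.5 are described here by age and tissue only. Nothing in the labels says that the 3 samples of a stage were separate animals or litters, so a p-value speaks only of the spread among these arrays, which can be technical.

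In the fetal mouse testis the male germ cells, called gonocytes or prospermatogonia, stop dividing and stay in mitotic arrest until after birth, while Sertoli cells enclose them in cords and fetal Leydig cells make androgen. Division resumes in the newborn, spermatogonia form, and the first wave of germ cells enters meiosis, so that by about P14 the most mature germ cells are spermatocytes in meiotic prophase. Round spermatids follow at about P21, and elongated spermatids and sperm are present in the adult. Whole testis holds germ cells together with Sertoli, Leydig, peritubular, vascular and blood cells. In such bulk tissue fewer cells of a type and less RNA per cell cannot be told apart.

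Values are the authors' signals on a log2 scale, so a difference of 1 is 2-fold, and each difference is the P14 mean minus the E15.5 mean. Each standard error (SE) pools a probe's spread within every stage of the series, so a wide spread at another stage enlarges it. No gene could be assigned to a probe, because 0 of the 37820 identifiers matched the gene tables used here. Markers of arrested gonocytes, spermatocytes and somatic cells could therefore not be looked up, and the labels' stages were checked only by how the arrays resembled each other. Probes are named by their identifiers, and a gene may be measured by more than 1 probe. Pearson's r over all probes was 0.993 to 0.995 between P14 arrays, 0.978 to 0.989 between E15.5 arrays and 0.874 to 0.886 between an array of P14 and one of E15.5. The median SD of a probe was 0.12 at P14 and 0.22 at E15.5, against 0.20 at P7, 0.28 in the adult, 0.37 at E12.5 and 0.49 at P21. E12.5 replicate 2 was unlike the other arrays of its age, with a mean r of 0.953 with the E15.5 arrays, against 0.884 and 0.885 for E12.5 replicates 1 and 3. Replicates 1 and 3 were thus no closer to E15.5 than to P14, where their mean r was 0.89 and 0.889. Counts that rest on E12.5 are given with and without E12.5 replicate 2, and the E12.5 means of single probes are over all 3 arrays.

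Large numbers of probes differed between P14 and E15.5, nearly as many upward as downward. Of 37820 probes, 12267 (32.4%) were called, which required a Benjamini-Hochberg adjusted p below 0.05 in limma and a change of at least 2-fold. Signal was higher at P14 for 5864 probes (15.5%) and lower at P14 for 6403 (16.9%). The median difference of the called rises was 1.86, or 3.63-fold, and that of the called falls was -1.72, or 3.29-fold. Changes of at least 8-fold were called for 1033 probes higher at P14 (2.73%) and 738 lower at P14 (1.95%), and differences of at least 5 on the log2 scale for 145 and 75 probes. The median difference of all probes was -0.04.

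The stages were separated without overlap for far more probes than were called. All 3 P14 values lay above or all 3 lay below the 3 E15.5 values for 25671 probes (67.9%), above for 12020 (31.8%) and below for 13651 (36.1%). Among the called probes 99.7% of the rises and 99.9% of the falls did not overlap. Even the closest pair of arrays stood at least 2-fold apart for 74.0% of the called rises and 72.9% of the called falls. The calls were made on these same values, which favours such separation among called probes, so these shares add no separate evidence. A further 3436 probes passed the test with a change under 2-fold, and 1365 differed by at least 2-fold without passing it. The share called differed with brightness: in 5 equal groups ranked by mean signal over the 18 arrays it was 20.7% in the dimmest, then 28.5%, 35.0% and 42.5%, and 35.5% in the brightest. In the dimmest group falls outnumbered rises, with 14.7% of probes called lower and 6.02% called higher.

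**Figure D1:**
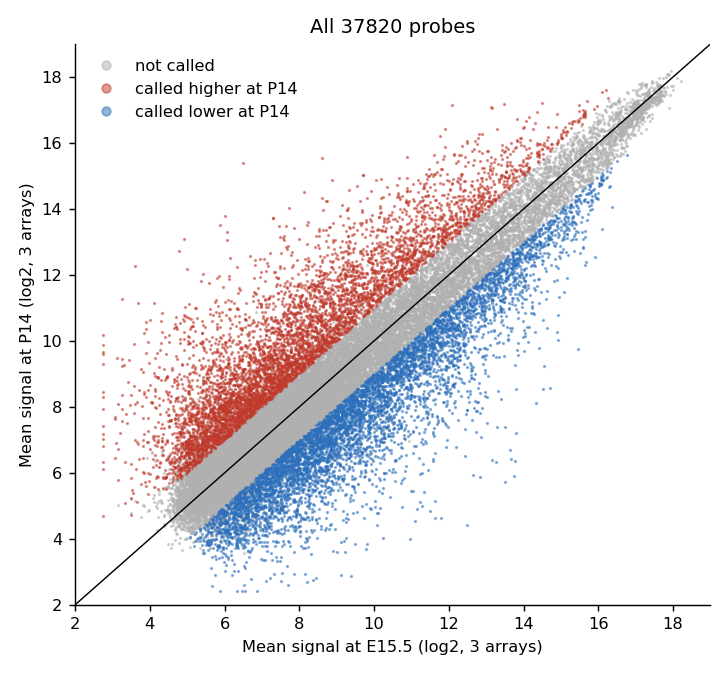
Mean signal at P14 (log2, vertical axis) against mean signal at E15.5 (log2, horizontal axis) for 37820 probes, with called rises and falls coloured. The 5864 rises lie above the diagonal and the 6403 falls below it, and both occur in each of the 5 brightness groups.

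The largest rise belonged to ASMM9PARTA006223, which read 15.32, 15.44 and 15.42 at P14, against 6.98, 6.11 and 6.40 at E15.5. The difference was 8.90 (SE 0.24, 95% interval 8.39 to 9.41), 477-fold, with a limma adjusted p of 4.84e-12. The P14 and E15.5 values were far apart, and the probe also stayed dim at E12.5 (mean 6.26) and P7 (6.74) and bright at P21 (15.59) and in the adult (14.86). AV277464_P1, a probe named by a sequence accession, had a similar course. It read 13.55, 13.57 and 13.44 at P14, against 6.06, 5.82 and 5.78 at E15.5, a difference of 7.64 (SE 0.18, limma adjusted p = 8.36e-13). Its mean was 6.43 at P7 and 15.22 at P21, so the step between P7 and P14 was 7.09 (SE 0.18, limma adjusted p = 2.56e-12).

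The other 6 of the 8 largest rises had left the E15.5 level by P7. ASMM9PARTA020618 read 13.13, 12.89 and 13.20 at P14, against 5.24, 4.88 and 4.65 at E15.5, a difference of 8.15 (SE 0.59). It was intermediate at P7 (8.49 ± 0.58, SD, n = 3) and in the adult (8.21 ± 0.54), so P14 was its highest stage. ASMM9PARTA044022 read 12.37, 12.15 and 12.24 at P14, against 5.31, 2.77 and 2.74 at E15.5, a difference of 8.65 (SE 1.07, limma adjusted p = 1.16e-05). The probe's SD was 1.47 at E15.5 and 0.11 at P14, and the SE also includes the spread at P21, where the SD was 2.99. ASMM9PARTA044022 was already at 11.34, 11.25 and 11.10 at P7, and was back at a mean of 5.63 in the adult.

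ASMM9PARTA036554, ASMM9PARTA042662, ASMM9PARTA031470 and ASMM9PARTA028745 shared a low reading at E15.5 between high readings at E12.5 and P7. ASMM9PARTA031470 read 13.74, 13.50 and 14.08 at P14, against 6.35, 5.51 and 6.2 at E15.5, a difference of 7.75 (SE 0.82). At E12.5 it read 14.74 and 14.85 in replicates 1 and 3 and 11.15 in replicate 2, so all 3 were well above E15.5. The other 3 probes rose by 8.02, 7.95 and 7.46 (SE 0.59, 0.69 and 0.73), with means of 3.26, 4.77 and 3.68 at E15.5 and E12.5 means from 10.61 to 11.42. Several of the E15.5 readings of ASMM9PARTA044022, ASMM9PARTA036554 and ASMM9PARTA028745 were the lowest value of their array, where values have no order, so the size of these differences has no precise meaning. Such lowest values, 2.73, 2.77 and 2.74 in the 3 E15.5 arrays, occurred for 141 of the called rises. Among the called falls, 31 had at least 1 P14 value that was the lowest of its array.

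The largest fall belonged to ASMM9PARTA017338, which read 4.71, 4.21 and 4.30 at P14, against 12.41, 12.48 and 12.54 at E15.5. The difference was -8.07 (SE 0.94, 95% interval -10.07 to -6.07), 269-fold, with a limma adjusted p of 6.16e-06. The SE and interval include the spread at P21: the probe's SD was 2.92 there, against 0.07 at E15.5 and 0.27 at P14. E15.5 was by far its brightest stage: the mean was 5.17 at E12.5, 4.11 at P7 and 8.75 in the adult. ASMM9PARTA019901 had a similar peak, with 4.81, 4.62 and 4.46 at P14, against 11.68, 11.59 and 11.61 at E15.5, and means of 6.91 at E12.5 and 5.71 at P7. Its difference was -7.00 (SE 0.37).

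A group of 5 further falls declined in steps from E15.5 through P7 to P14. ASMM9PARTA022398 read 6.2, 6.01 and 5.5 at P14, against 13.79, 13.59 and 13.83 at E15.5, a difference of -7.83 (SE 0.41, limma adjusted p = 2.24e-09). Its P7 values of 10.44, 10.27 and 10.24 lay between, and both steps passed the test, with P7 minus E15.5 at -3.42 and P14 minus P7 at -4.41 (SE 0.41 each). In the other 4 both steps also passed the test. ASMM9PARTA028736, ASMM9PARTA022663, ASMM9PARTA028079 and ASMM9PARTA022425 differed by -7.78, -7.25, -7.15 and -6.96, with E15.5 means from 11.79 to 13.67 and P7 means from 8.06 to 10.25. All 5 were lower at E12.5 than at E15.5, with E12.5 means from 8.53 to 11.28. ASMM9PARTA029004 differed in being bright at both fetal ages: it read 6.53, 6.59 and 5.99 at P14, against 13.87, 13.72 and 13.75 at E15.5, and averaged 13.49 at E12.5 and 8.90 at P7.

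**Figure D2:**
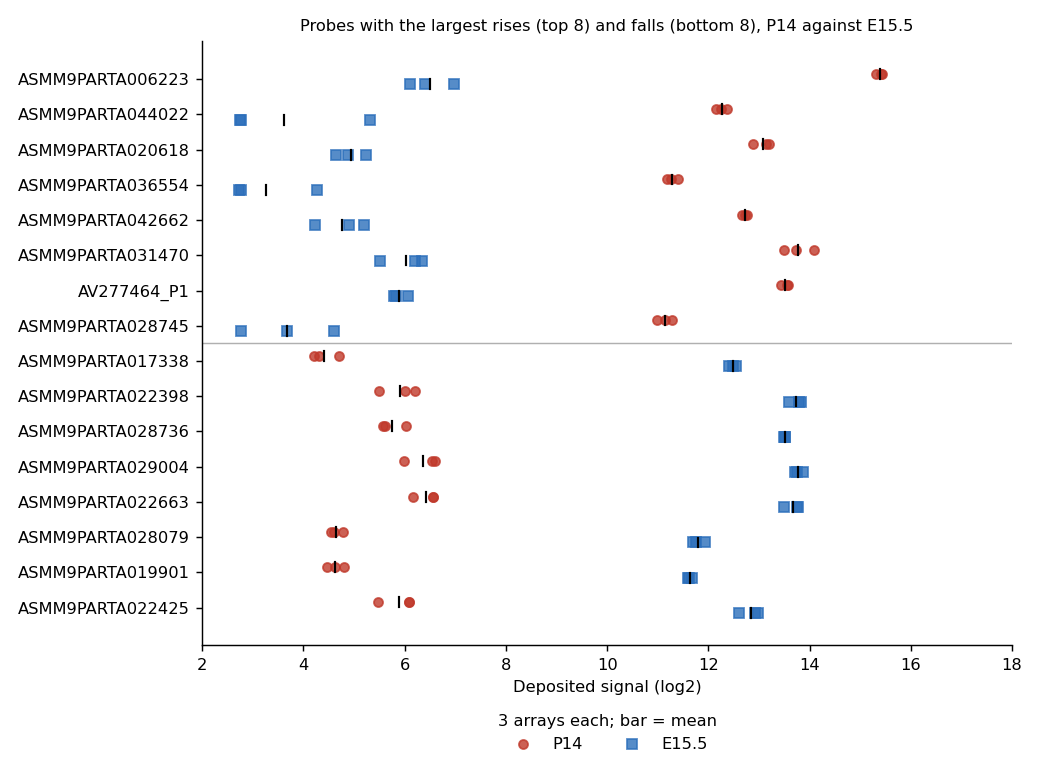
Signal (log2) of the probes with the 8 largest rises and the 8 largest falls, each with its 3 P14 values and its 3 E15.5 values as points. No probe shown has overlapping stages, and the E15.5 points of ASMM9PARTA044022 are spread from 2.74 to 5.31.

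The brightest called probes had small changes. The brightest rise at P14, ASMM9PARTA027540, read 17.57, 17.59 and 17.65 at P14, against 16.22, 16.21 and 16.18 at E15.5, a difference of 1.40 (SE 0.18, limma adjusted p = 1.64e-05). ASMM9PARTA028728 rose by 1.43 (SE 0.20), with means of 17.53 at P14 and 16.10 at E15.5. The brightest falls at E15.5 were ASMM9PARTA032991, with means of 15.64 at P14 and 16.77 at E15.5, and ASMM9PARTA028230, with 15.46 at P14 and 16.50 at E15.5. Their differences were -1.14 (SE 0.16) and -1.04 (SE 0.23). These 4 probes did not pass limma's treat test, which asks for a change beyond 2-fold, and ASMM9PARTA028230 also fell short of 2-fold without P14 replicate 2, at -0.98.

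The other stages placed E15.5 at the edge of the course of many of these probes. Over the called rises the median signal was 8.56 at E12.5 and 7.55 at E15.5, then 8.74 at P7, 9.76 at P14 and 9.44 at P21, with 9.17 in the adult. Over the called falls it was 8.67 at E12.5 and 9.50 at E15.5, then 8.38 at P7, 7.51 at P14 and 7.46 at P21, with 7.36 in the adult. Of the rises 49.2% had their lowest of the 6 stage means at E15.5, and of the falls 65.0% had their highest there, which the choice of probes on E15.5 itself favours. Without E12.5 replicate 2 these shares were 43.9% and 65.1%. The medians at E12.5 moved with its replicate 2: without it they were 8.81 for the rises and 8.50 for the falls, and in that array alone 8.01 and 9.16, nearer to E15.5 in both cases.

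The probes that rose at least 8-fold, chosen for a larger difference between these stages, had a median of 9.23 at E12.5 and 6.93 at E15.5, then 9.28 at P7, 10.87 at P14 and 10 at P21, with 9.05 in the adult. In E12.5 replicates 1 and 3 it was 9.90, and in replicate 2 it was 7.99. Among the P21 arrays it was 10.62 in replicate 1, 9.56 in replicate 2 and 9.81 in replicate 3. The probes that fell at least 8-fold had medians of 8.76 at E12.5 and 10.25 at E15.5, then 8.06 at P7, 6.45 at P14 and 6.79 at P21, with 6.81 in the adult.

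**Figure D3:**
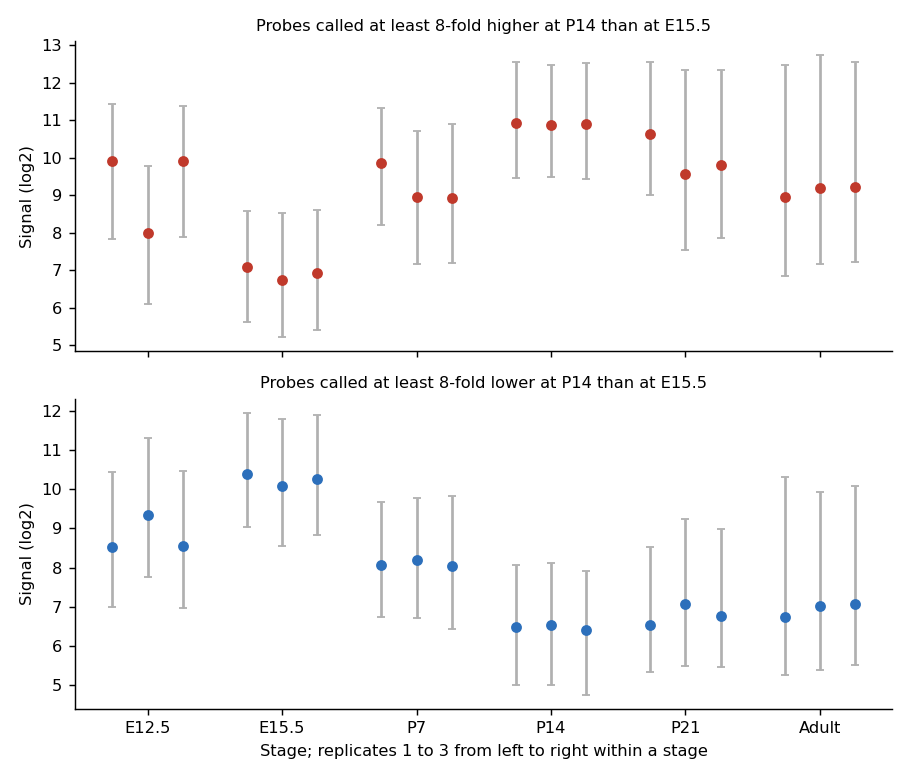
Median signal (log2) with quartiles in each of the 18 arrays, by stage in order of age, for the 1033 probes at least 8-fold higher and the 738 at least 8-fold lower at P14 than at E15.5. The rises are lowest and the falls highest at E15.5, and E12.5 replicate 2 lies nearer to E15.5 than E12.5 replicates 1 and 3 do.

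The called rises and falls were also read in P7 against E12.5, a pair of stages that shares no array with P14 against E15.5. The calls are still not independent, because the spread of a probe was estimated over the whole series for both comparisons. A probe with a low spread is more readily called in both, in either direction. Over all probes, 9.58% were called higher and 6.40% lower at P7 than at E12.5. Of the 5864 rises, 23.9% were also higher at P7 than at E12.5 and 5.24% were lower. Of the 6403 falls, 15.9% were also lower and 7.36% were higher. Without E12.5 replicate 2 both sets changed. All probes then gave 13.7% higher and 11.5% lower, the rises gave 29.3% higher and 20.2% lower, and the falls gave 14.8% lower and 11.9% higher. Of the rises of at least 8-fold, 37.3% were then lower at P7 than at E12.5 and 32.1% higher, against 7.65% and 31.4% with all 3 E12.5 arrays. The falls of at least 8-fold gave 30.9% lower and 14.5% higher without that array, against 35.8% and 10.8% with it.

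P7 lies between the ages compared. In comparisons of their own, P7 against E15.5 called 5951 probes (15.7%), 7.5% higher and 8.23% lower at P7, and P14 against P7 called 4858 (12.8%), 6.21% higher and 6.64% lower at P14. These comparisons share the E15.5 or the P14 arrays with the one above, so only the position of the P7 mean is described. For the median called rise 55.9% of the difference was present at P7, and for the median called fall 51.6%. With the difference cut into 3 equal bands, the P7 mean lay in the band next to E15.5, or beyond it, for 23.6% of the rises and 25.3% of the falls, and in the band next to P14, or beyond it, for 32.3% and 31.0%.

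Within the changes of at least 8-fold some courses could be counted, with limits of 2-fold and 4-fold that were set after the values were seen and carry no test. Of the 1033 rises, 192 (18.6%) were at least 4-fold below P14 at both E12.5 and P7, as ASMM9PARTA006223 was. Another 174 (16.8%) were within 2-fold of P14, or above it, at both E12.5 and P7, and so dipped at E15.5. In E12.5 replicate 2 alone the dip was shallower: the median of these 174 was 8.54 there, against 6.11 at E15.5 and 10.13 at P14. Of the 738 falls, 160 (21.7%) peaked at E15.5, with E12.5 and P7 both at least 4-fold below it. A further 117 (15.9%) held at least nearly the E15.5 level at E12.5 and were 4-fold or more below it at P7, and 79 (10.7%) held it at both E12.5 and P7 and were dim at P14. Without E12.5 replicate 2 these counts were 179, 189, 191, 100 and 75.

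Most of the 79 falls that kept their level through P7 turned back after P14. The adult mean was at or above the P14 mean in 63 of the 79 and at least 8-fold below it in 8. It was at or above P14 in 94 of the 160 falls that peaked at E15.5. The same held for 48 of the 117 lost by P7 and 165 of the 382 with other courses. Over all 79 the median signal was 9.56 at E12.5 and 8.18 at E15.5, then 8.48 at P7, 4.30 at P14 and 9.19 at P21, with 16.18 in the adult. In 54 of them, and in 52 of the 75 counted without E12.5 replicate 2, the adult mean was at least 2-fold above the E15.5 mean. The median of this group was lowest at P14 and highest in the adult. That P14 lay below E12.5, E15.5 and P7 follows from how the group was chosen.

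A low median at P14 was also seen when probes were picked without the P14 and E15.5 values, a choice made after the course above was known. Probes with an adult mean of at least 14 that was at least 8-fold above the P21 mean numbered 282. Of these 159 (56.4%) were called lower and 13 (4.61%) higher at P14 than at E15.5, beside 16.9% and 15.5% of all probes. Their median was 9.04 at E12.5 and 8.05 at E15.5, then 8.07 at P7, 6.49 at P14 and 10.06 at P21, with 15.45 in the adult. E12.5 replicates 1 and 3 had medians of 8.67 and 8.68, also above P14. Probes bright both in the adult and at P21 were more often called higher at P14. Of 2107 probes with an adult mean of at least 14 and a P21 mean of at least 13, 113 (5.36%) were called lower at P14 and 522 (24.8%) higher. The sets of 282 and 2107 were chosen to differ at P21, so they do not show what adult brightness alone goes with.

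The 3 adult-brightest probes called lower among the 282, named here after their values were seen, show the course array by array. ASMM9PARTA031972 read 6.37, 5.96 and 5.94 at P14, against 11.59, 11.30 and 11.42 at E15.5, a difference of -5.34 (SE 0.35, limma adjusted p = 2.31e-08). It averaged 14.49 at E12.5, 11.43 at P7, 8.20 at P21 and 18.08 in the adult. The lowest E15.5 value lay more than 4 log2 units above the highest P14 value. ASMM9PARTA031867 read 7.27, 7.35 and 7.06 at P14, against 12.61, 12.82 and 12.71 at E15.5, and ASMM9PARTA037897 read 6.71, 7.01 and 6.61 at P14, against 10.24, 9.67 and 9.92 at E15.5. Both were also brighter at E12.5 (15.21 and 11.49) than at E15.5. Spermatids are not present in testis at E12.5, E15.5 or P7, and whether the readings of these adult-bright probes there came from those testes, or from adult RNA or label carried over, was not tested. The 159 falls are differences in signal with that limit.

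The 4 families of probe identifiers gave shares called from 22.9% to 36.2%, beside 32.4% of all probes (15.5% higher and 16.9% lower). ASMM9PARTA probes, the bulk of the array, gave 11359 calls of 34232 (33.2%, near the share of all probes), 5416 higher and 5943 lower at P14. CUST probes gave 191 of 527 (36.2%), 72 higher and 119 lower. Probes named by a sequence accession gave 149 of 581 (25.6%), 69 higher and 80 lower. Probes with lincRNA (long intergenic noncoding RNA) in the identifier gave 568 of 2480 (22.9%), 307 higher and 261 lower. By kind of lincRNA identifier, 472 of 1840 MM9LINCRNAEXON probes were called (25.7%), 57 of 394 humanlincRNA probes (14.5%) and 39 of 246 mouselincRNA probes (15.9%). The families differ in brightness: the median of the mean signal was 6.96 for lincRNA and 6.4 for humanlincRNA probes, against 7.93 for all probes. The dimmest probes were called less often, so these shares do not compare families at equal brightness. They are descriptions, and no difference between families was tested.

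**Figure D4:**
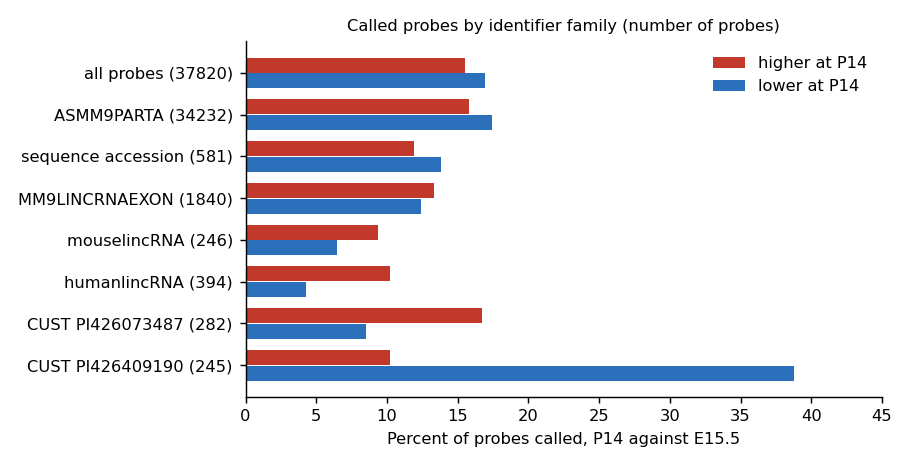
Percent of the probes of each identifier family called higher and called lower at P14 than at E15.5. LincRNA probes are split by kind of identifier and CUST probes by the code that ends it. The humanlincRNA and mouselincRNA probes have the smallest shares called, 14.5% and 15.9%. CUST probes ending in PI426409190 were more often lower (38.8%) than higher (10.2%), and those ending in PI426073487 more often higher (16.7%) than lower (8.51%).

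Of the 3 lincRNA probes with the largest rises, 2 had a higher mean in the adult than at P14. MM9LINCRNAEXON11792+_P1 read 15.10, 14.96 and 15.05 at P14, against 9.11, 10.14 and 9.85 at E15.5, a difference of 5.34 (SE 0.45, limma adjusted p = 2.42e-07). It was intermediate at P7 (12.15 ± 1.19, SD, n = 3) and averaged 16.48 in the adult. MM9LINCRNAEXON10763-_P1 rose by 4.72 (SE 0.41), with means of 14.90 at P14 and 10.18 at E15.5 and 16.29 in the adult. MM9LINCRNAEXON11754-_P1 also rose by 4.72 (SE 0.26), with means of 12.21 at P14 and 7.49 at E15.5, but its adult mean was 8.85.

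Of the largest lincRNA falls, MM9LINCRNAEXON10112+_P1 read 4.27, 4.60 and 4.40 at P14, against 10, 10.17 and 10.09 at E15.5, a difference of -5.66 (SE 0.36, limma adjusted p = 1.46e-08). It was already down at P7 (5.49) and stood at 12.03 in the adult. MM9LINCRNAEXON10080+_P1 and MM9LINCRNAEXON11121-_P1 fell by 4.34 and 4.24 (SE 0.30 and 0.57) and had adult means of 3.20 and 4.56. Thus 1 of these 3 probes was bright in the adult and the others were not.

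The lincRNA identifiers include 625 pairs that differ only in the strand sign, + or -, taken here to mark opposite strands of 1 locus. Both strands were called in 42 pairs (6.72%), 1 strand in 193 (30.9%) and neither in 390. Of the single probes in these pairs 22.2% were called, beside 32.4% of all probes, and nothing particular to the pairs is read from the count. Of the 42, both strands rose in 16, both fell in 13, and they moved in opposite directions in 13. In the pair with the largest summed change, MM9LINCRNAEXON10763, the plus strand rose by 3.15 (SE 0.30) and the minus strand by 4.72 (SE 0.41). In MM9LINCRNAEXON10137 the strands moved apart: the plus strand read 10.56, 10.22 and 10.43 at P14, against 7.46, 8.40 and 7.86 at E15.5, and the minus strand 7.25, 7.38 and 7.05 at P14, against 11.54, 11.09 and 11.37 at E15.5. The differences were 2.5 (SE 0.34) and -4.10 (SE 0.52), with limma adjusted p of 2.75e-05 and 1.44e-05. In humanlincRNA0318 both rose, by 2.91 (SE 0.46) on the plus and 3.32 (SE 0.64) on the minus strand.

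CUST identifiers end in one of 2 codes, PI426073487 or PI426409190, whose meaning the labels do not give. Of 282 probes with the code PI426073487, 47 (16.7%) were called higher and 24 (8.51%) lower at P14, beside 15.5% and 16.9% of all probes. Of 245 probes with the code PI426409190, 25 (10.2%) were called higher and 95 (38.8%) lower. This division was made after the values were seen, and the difference between the codes was not tested. The 95 falls had a median difference of -2.11 and ranged from -5.23 to -1.01. Their median signal was 8.0 at E12.5 and 8.83 at E15.5, then 7.72 at P7, 6.35 at P14 and 11.23 at P21, with 12.39 in the adult. The adult mean lay above the E15.5 mean in 61 of the 95 (64.2%), and in 1087 of the other 6308 falls (17.2%). A late rise was also seen over all 245 probes with this code, which include the 95. For these 245 the median signal went from 8.93 (E15.5) to 8.18 (P14), 10.57 (P21) and 10.99 (adult). The adult median of all probes on the array was 7.75. The probes with this code that were not falls were not read apart from the 95. Whether the high adult signal is particular to the falls with this code was therefore not tested.

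**Figure D5:**
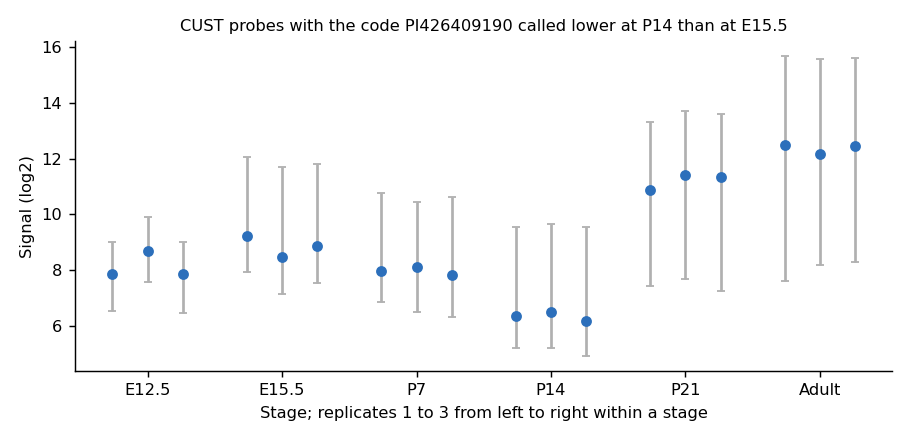
Median signal (log2, points) with quartiles (bars) in each of the 18 arrays, by stage in order of age, for the 95 CUST probes with the code PI426409190 called lower at P14 than at E15.5. The 3 P14 arrays are the lowest of all, and the adult arrays, with a stage median of 12.39, the highest.

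CUST_84_PI426409190 is an example of this course. It read 8.05, 8.10 and 7.78 at P14, against 12.74, 12.51 and 12.73 at E15.5, a difference of -4.69 (SE 0.19, limma adjusted p = 3.56e-10). It averaged 7.93 at E12.5, 9.78 at P7, 14.36 at P21 and 16.64 in the adult. Over the 18 arrays 36 other probes followed it with r of at least 0.98, of which 31 were ASMM9PARTA probes and 5 were CUST probes with the same code. Their differences ran from -5.59 to -2.5. The P14 and E15.5 arrays were among the 18, so these falls largely follow from the choice by r. The probes may overlap in sequence, which could not be checked without their sequences. CUST_54_PI426409190 fell by 5.23 (SE 0.40), with means of 3.89 at P14 and 9.12 at E15.5, and averaged 12.87 in the adult.

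Some CUST probes rose instead. CUST_201_PI426073487 read 12.13, 12.14 and 12.27 at P14, against 5.17, 4.93 and 4.91 at E15.5, a difference of 7.17 (SE 0.77). CUST_30_PI426409190 read 14.30, 13.92 and 14.46 at P14, against 8.98, 8.54 and 8.71 at E15.5, a difference of 5.48 (SE 1.05). Both dipped at E15.5, with E12.5 readings of 13.29 and 15.26 in replicate 1, 13.29 and 15.20 in replicate 3, and 10.06 and 10.20 in replicate 2.

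Among probes named by sequence accessions, CA585643_P1 had the second largest rise after AV277464_P1. It rose by 4.44 (SE 0.61), with means of 13.73 at P14 and 9.30 at E15.5, and stood at 15.52 in the adult. BU937478_P1 fell by 4.78 (SE 0.50), with means of 3.53 at P14 and 8.32 at E15.5, and was back at 9.46 in the adult. AF416735_P1 read 9.68, 9.67 and 9.74 at P14, against 14.22, 13.94 and 13.89 at E15.5, a difference of -4.32 (SE 0.34), and averaged 5.97 in the adult.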

How the data were processed

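Testis RNA freed of ribosomal RNA was copied by random priming into Cy3-labelled cRNA, per the labels' protocols, and hybridised to 1-colour arrays. The submitters' processing notes name Agilent Feature Extraction 11.0.1.1. The authors deposited 1 value per probe and array, taken here as log2 signals from their range. Their log base, normalization and probe filter were not given in the sources used here. Detection flags and scanner files were not used, so no probe could be called absent.

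With limma 3.58.1 (lmFit, eBayes; R 4.3.3), the 18 arrays were fitted with a mean for each stage, with 12 residual and 3.2 prior degrees of freedom. P-values were adjusted over all 37820 probes by Benjamini-Hochberg. Alternatives included the 6 arrays alone, other scalings and priors, array weights, other thresholds and leaving out arrays. The script was tested on simulated data. Tables and plots used Python 3.11.15 and matplotlib 3.10.9.

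Named probes were called without overlap between stages: the 8 largest rises and falls, 3 each among lincRNA, 2 each among CUST and accession probes, the 2 brightest each way, and 3 strand pairs. Those chosen otherwise are marked. Families were read from the identifiers' text. The comparison, lists and rules were chosen with earlier results of these data known. The planned cell type markers and gene lists could not be tested without gene names, and probe sequences were not used here. The number of arrays limits the precision.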

Additional observations from a re-analysis of the deposited data

How the results depend on the processing

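Most settings left the comparison as reported. The count of 12267 called probes was 13432 in the 6 arrays alone and 10043 to 15703 over the settings other than the treat test, and 11091 to 11586 leaving out each of the 6 arrays in turn. No called probe changed sign in any setting. Rises outnumbered falls only without the dimmest 25% of probes (5257 and 5049). Same-numbered P14 and E15.5 arrays did not deviate together (r = 0.058, -0.148 and 0.012), so the numbers were not taken to pair samples, and with the replicate block 12471 probes were called. The treat test, which asks for a change beyond 2-fold, called 4586 probes, 2242 higher and 2344 lower: 4264 ASMM9PARTA, 83 CUST (47 falls with the code PI426409190), 182 lincRNA and 57 accession probes, 4 lincRNA pairs and 102 of the 282 adult-bright probes as falls. It gave 1148 for P7 against E15.5, 798 for P14 against P7 and 1217 for P7 against E12.5. At an adjusted p below 0.01 the pairs with both strands called numbered 23, and P14 against P7 gave 3195. With array weights P14 against P7 gave 7452, against 4858 as reported. P7 against E12.5 gave 6046 probes, 9524 without E12.5 replicate 2, 10287 without P21 replicate 1 as well, and 11118 with array weights. Of 696 recomputed values of the 41 named probes 691 kept direction and call. The 5 others were ASMM9PARTA028230 without P14 replicate 2 and, in the treat test, the 4 probes named as brightest, ASMM9PARTA027540, ASMM9PARTA028728, ASMM9PARTA032991 and ASMM9PARTA028230. The thresholds for named probes, and the values of the 3 adult-bright examples, were added after seeing the data. What low signal limits could not be measured, since the limit of detection is not given in the sources used here.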
